A study of Mus musculus with 9 samples.

Results

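Genes of matrix proteases and their inhibitors were compared between cells sorted from the dentate gyrus (DG) and from the subventricular zone (SVZ) of the adult mouse brain. The genes were chosen by name, with earlier results of these data known. They were the Adam, Adamts, Adamtsl and Mmp families, Timp1 to Timp4, Reck, the Serpin family, and Plat, Plau and Plaur. Of 148 annotated protein-coding mouse genes with such names, 61 were among the 14477 genes measured. They comprised 10 Mmp, 12 Adam, 14 Adamts, 5 Adamtsl and 12 Serpin genes, the 4 Timp genes with Reck, and the 3 genes of plasminogen activation.

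Matrix metalloproteinases (Mmp), Adam and Adamts enzymes share a zinc-dependent catalytic domain. Mmp enzymes cut collagens and other matrix proteins, Adamts enzymes cut matrix proteoglycans and procollagens, and Adam enzymes release the outer parts of membrane proteins such as Notch receptors and growth factor precursors. The tissue inhibitors of metalloproteinases (Timp) block the metal enzymes, and many serpins trap serine proteases such as plasmin, thrombin and the plasminogen activators. In the adult brain these enzymes are known for remodelling the matrix around vessels, stem cell niches and migrating neuroblasts.

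The cells came from untreated adult B6.Cg-Tg(Nes-EGFP)1Yamm mice in standard housing, and all 9 libraries, 5 from the DG and 4 from the SVZ, share this transgene. Regulatory DNA of Nes drives its green fluorescent protein, so the sort takes any cell in which that DNA is active, and fluorescence was the gate in both regions. The labels call the cells Nestin-positive precursors, and do not say whether a library came from 1 animal or a pool, so the p-values speak only to library-to-library spread, which may in part be technical. The comparison asks how the sorted cells of the 2 neurogenic regions differ in expression. Levels are log2 CPM, reads per 1000000 counted reads, with a prior count of 1 read. Means carry their SD over 5 DG or 4 SVZ libraries. Each log2 fold change subtracts the SVZ mean from the DG mean and carries its standard error (SE). The adjusted p-values are from limma with Benjamini-Hochberg adjustment over all 14477 genes.

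Library totals ran from 33627909 to 41164044 reads in the DG and from 31126803 to 32528255 in the SVZ, so that 1 read was worth 0.0243 to 0.0321 CPM. Nes itself was present in every library, at 5.89 to 6.99 in the DG and 6.87 to 7.61 in the SVZ. It was lower in the DG (log2 fold change -0.95, SE 0.22, adjusted p = 0.00238), and the groups overlapped. Markers of vessel walls were present too. The 15 measured pericyte and smooth muscle markers of 16 summed to 6239 to 13156 CPM in the DG and 83.2 to 202 CPM in the SVZ, and all 15 were higher in the DG. All 14 endothelial markers were also higher (1933 to 3744 CPM in the DG, 60.2 to 176 CPM in the SVZ), as were all 12 fibroblast and meningeal markers (959 to 1682 and 39.5 to 106 CPM) and all 6 border macrophage markers (196 to 875 and 3.96 to 16.7 CPM). Of 12 astroglial markers 11 were higher in the DG (17007 to 25758 CPM, against 1931 to 3623 CPM in the SVZ), and of 12 oligodendrocyte lineage markers 10 were higher and 1 lower (5208 to 8543 and 1719 to 2943 CPM). All 13 neuroblast markers were lower in the DG (5379 to 8342 CPM, against 21225 to 25027 CPM in the SVZ), as were all 8 ependymal markers (15 to 30.4 and 112 to 297 CPM). Of 11 microglial markers 0 were higher in the DG, 3 were lower and 8 did not pass (267 to 984 and 224 to 1153 CPM). Beside these counts, 32.9% of all genes were higher in the DG and 33.7% lower. How many of the markers are in the table only through their level in 1 region was not counted. No marker was at 0 reads over a whole group. The part of these cell types in the results on proteases was not tested, and in bulk libraries fewer cells of a type and less RNA per cell cannot be told apart. DG 3 stood apart on the second principal component (50.77, against -20.47 to -0.38 in the other DG libraries), and its mature neuron markers summed to 901 CPM, against 215 to 277 CPM in the others.

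Most of the measured protease and inhibitor genes differed between the regions, and most of those were higher in the DG. Of the 61 genes 51 differed, where the background was 66.6%. In all, 46 were higher in the DG, where the background over all genes was 32.9%, and 5 were lower, where the background was 33.7%. The other 10 did not pass the test. The median log2 fold change was 1.72, beside -0.07 over all genes. At least 8-fold higher in the DG were 16 of the 61 (background 6.71%). For 43 genes the lowest DG library exceeded the highest SVZ library (background 29.7%), and for 4 the reverse held (background 28.3%).

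The authors' table holds only genes above 1 CPM in at least 3 libraries, and 18 of the 61 met that minimum through DG libraries alone and 1, Timp1, through SVZ libraries alone. Such genes are selected for a difference: of all 1176 genes that entered through the DG alone, 1072 were called higher there and 0 lower. Their calls are no evidence about the families. Of the 42 genes that met the minimum in each region, 28 were higher in the DG, 4 were lower and 10 did not pass, with a median log2 fold change of 1.19. Over all 12751 genes that did so, 29.0% were higher and 34.7% lower, with a median of -0.12. Of these 42 genes 7 were at least 8-fold higher (background 2.88%), 25 had every DG library above every SVZ library (background 25.9%), and 3 had every DG library below (background 29.2%). The 5 genes lower in the DG were Timp1, the metalloproteinase genes Adam19, Adamts7 and Adamts20, and the membrane enzyme gene Mmp24.

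**Figure D1:**
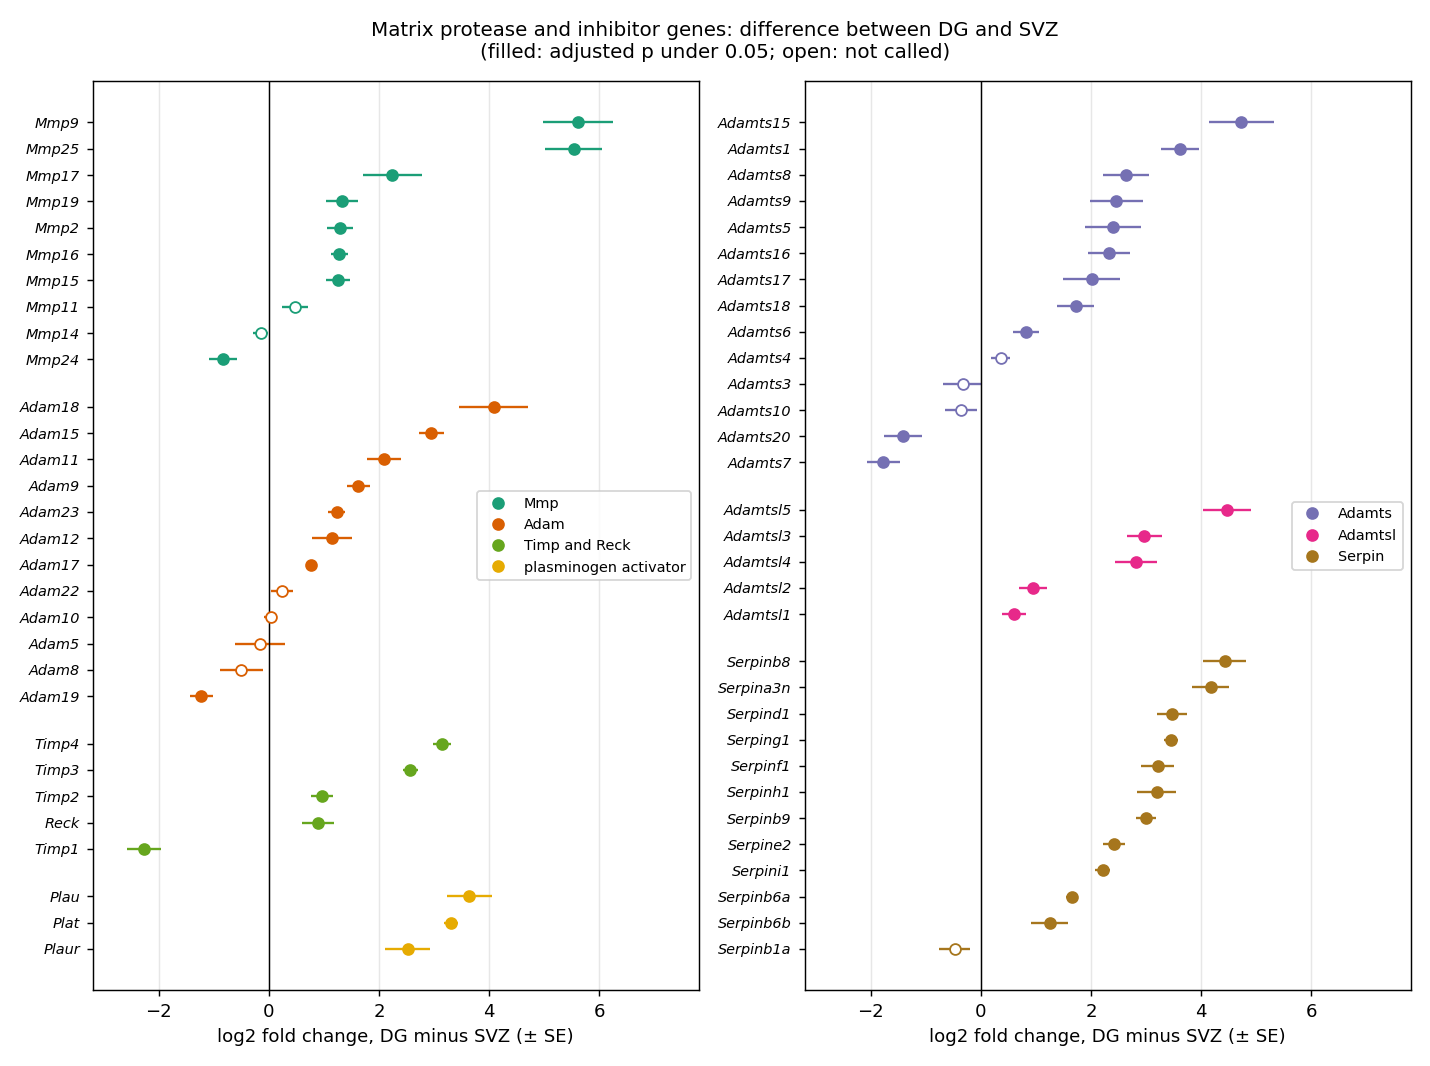
Log2 fold change (DG minus SVZ, x axis) of the 61 genes by family, with bars of 1 SE over 5 DG and 4 SVZ libraries; filled points passed the test and open points did not. Most points lie right of 0, Mmp9 (5.61) and Mmp25 (5.53) farthest, and Timp1 (-2.26) lies farthest left.

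The Timp genes divided, with Timp2, Timp3 and Timp4 higher in the DG and Timp1 lower. Timp1 met the table's minimum through SVZ libraries alone, so its direction is no evidence about the family. Timp3 (ENSMUSG00000020044, chromosome 10, 86300372 to 86349506, plus strand, mm10) encodes the inhibitor that binds to the matrix and also blocks Adam17 and the proteoglycan-cutting Adamts enzymes. It stood at 9.45, 9.30, 9.39, 9.51 and 9.32 in DG 1 to DG 5, against 6.39, 7.22, 6.90 and 6.81 in SVZ 1 to SVZ 4. The DG libraries were tight and lay over 2 log2 units above the highest SVZ library, a 5.93-fold difference of the means (log2 fold change 2.57, SE 0.14, adjusted p = 8.43e-08). Timp4 (ENSMUSG00000030317, chromosome 6, 115241892 to 115252205, minus strand), an inhibitor known from brain and heart, had 7.36, 7.12, 7.34, 7.49 and 7.68 in the DG and 4.10, 4.47, 4.57 and 3.91 in the SVZ. The groups did not overlap, and the difference was 8.81-fold (3.14, SE 0.16, adjusted p = 5.02e-08).

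Timp2, an inhibitor that also takes part in the activation of Mmp2 at the cell surface, had 5.37, 5.23, 5.69, 5.13 and 5.62 in the DG and 4.49, 3.89, 4.45 and 4.96 in the SVZ. Its libraries did not overlap, but SVZ 4 came close to the lowest DG library (0.96, SE 0.20, adjusted p = 0.00145). Timp1 (ENSMUSG00000001131, chromosome X, 20870166 to 20874735, plus strand), the inhibitor known to be induced by cytokines and injury, ran the other way. It had -0.75, 0.01, -1.27, -1.01 and -0.45 in the DG and 1.66, 1.23, 1.41 and 1.94 in the SVZ, from 14 to 35 reads per DG library and 72 to 124 per SVZ library. Every DG library lay below every SVZ library, at a level 4.78-fold lower (-2.26, SE 0.31, adjusted p = 7.87e-05).

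Per kilobase of exon, Timp3 made up 62 to 69.2% of the summed Timp level in DG libraries and 45.8 to 64.3% in SVZ libraries. Timp1 made up 0.35 to 0.982% in the DG and 9.16 to 15.7% in the SVZ. In the SVZ its share was of the same order as that of Timp4 (8.9 to 14.7%), while Timp4 made up 21.1 to 27.4% in the DG. Timp3 and Timp4 lie inside the synapsin genes Syn3 and Syn2 on the opposite strand, and the libraries do not mark strand. Exons of Syn3 cover 21.3% of the exon bases of Timp3, and those of Syn2 cover 1.5% of the exon bases of Timp4. Syn3 was lower in the DG (2.74 ± 0.41, against 3.41 ± 0.30 in the SVZ, log2 fold change -0.68, adjusted p = 0.0238) and far below Timp3. Syn2 was higher (5.02 ± 0.29, against 2.38 ± 0.22, 2.63, adjusted p = 3.52e-07).

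RefSeq promoter windows (GRCm38.p6) of Timp1, Timp3 and Timp4 are shown because these inhibitors moved in opposite directions, with that of Serpine2, the serpin with the highest mean log2 CPM. They cover the 250 bases before the RefSeq start, less bases in a GENCODE exon of the same gene, on the gene's strand. They are Timp1 at chrX:20869916-20870165 (plus), Timp3 at chr10:86300162-86300371 (plus), Timp4 at chr6:115252206-115252455 (minus) and Serpine2 at chr1:79858697-79858915 (minus). Capitals mark the searched letters, which were the GC box GGGCGG, the CCAAT box, the TATA box TATAAA, the AP-1 motif TGANTCA and the STAT motif TTCNNNGAA, on both strands.
Timp1: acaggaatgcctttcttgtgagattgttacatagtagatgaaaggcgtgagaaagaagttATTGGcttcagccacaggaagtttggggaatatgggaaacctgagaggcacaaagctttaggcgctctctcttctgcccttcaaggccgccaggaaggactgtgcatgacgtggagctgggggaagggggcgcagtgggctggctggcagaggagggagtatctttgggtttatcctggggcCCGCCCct
Timp3: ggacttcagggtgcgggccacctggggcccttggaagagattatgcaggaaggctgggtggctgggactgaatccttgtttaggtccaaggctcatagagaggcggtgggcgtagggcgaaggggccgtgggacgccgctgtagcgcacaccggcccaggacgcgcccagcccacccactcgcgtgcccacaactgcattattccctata
Timp4: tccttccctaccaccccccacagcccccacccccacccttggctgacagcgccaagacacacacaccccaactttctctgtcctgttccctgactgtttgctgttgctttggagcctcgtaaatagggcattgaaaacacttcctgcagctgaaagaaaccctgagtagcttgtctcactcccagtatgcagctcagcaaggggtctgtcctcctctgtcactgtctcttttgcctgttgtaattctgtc
Serpine2: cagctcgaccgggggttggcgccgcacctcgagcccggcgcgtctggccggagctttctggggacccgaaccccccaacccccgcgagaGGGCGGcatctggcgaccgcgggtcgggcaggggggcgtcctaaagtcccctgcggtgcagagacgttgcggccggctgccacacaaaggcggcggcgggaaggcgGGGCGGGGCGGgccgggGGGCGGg
The Timp1 stretch held CCAAT and GGGCGG on its reverse strand, the Timp3 and Timp4 stretches held none of the letters, and the Serpine2 stretch held GGGCGG 4 times, with 1 base shared by a pair of the copies. Before exons were removed, the window of Timp3 held GGGCGG once more nearer the start, on the reverse strand, and that of Serpine2 held it at 2 more places. The window of Timp4 had 53.6% G and C and an observed-to-expected CpG ratio of 0.12, against 54.4% and 0.35 for Timp1, 65.6% and 0.67 for Timp3, and 78.8% and 0.91 for Serpine2. The windows of the oppositely moving Timp1 and Timp4 were thus both poor in CpG.

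Promoter windows were matched for 38 of the 61 genes. GGGCGG occurred in 71.1% of them, in 58.9% of the windows of 10834 matched genes of the table and in 32.9% of all 27025 mouse windows. CCAAT occurred in 28.9%, 36.5% and 34.5% of these sets, TATAAA in 5.26%, 6.31% and 13%, TGANTCA in 5.26%, 4.1% and 6.87%, and TTCNNNGAA in 2.63%, 5.8% and 7.18%. Windows rich in CpG (over 50% G and C, ratio over 0.6) made up 52.6% of the 38 and 61.2% of the matched genes of the table. Of the 20 genes with such a window 15 were higher in the DG and 2 lower, and of the 18 without it 13 were higher and 2 lower.

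Reck, a membrane-anchored inhibitor of metalloproteinases and a coreceptor for Wnt7 ligands, was higher in the DG by 0.90 (SE 0.29, adjusted p = 0.0158). It had 3.26, 3.09, 2.99, 2.62 and 2.61 in the DG and 1.79, 1.51, 1.81 and 2.93 in the SVZ. SVZ 4 lay within the DG range, and without SVZ 2 the call was lost (0.74, adjusted p = 0.0509).

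The 3 genes of plasminogen activation were higher in the DG, beside 32.9% of all genes, and Plat had the highest level of them. Plat (ENSMUSG00000031538, chromosome 8, 22757727 to 22782844, plus strand) encodes tissue plasminogen activator, the serine protease that turns plasminogen into plasmin and is known from vessel walls and neurons. It had 9.33, 9.34, 9.25, 9.24 and 8.75 in the DG and 5.94, 5.83, 6.02 and 5.73 in the SVZ. All DG libraries were high, DG 5 least so, and the difference was 9.86-fold (3.30, SE 0.13, adjusted p = 1.48e-08). Plau, the urokinase-type activator, had 3.05, 2.16, 2.43, 2.57 and 2.15 in the DG and -2.43, -0.44, -1.29 and -0.50 in the SVZ. The SVZ libraries spread more widely than the DG libraries but stayed below them (3.64, SE 0.41, adjusted p = 1.47e-05). Plaur, the receptor that holds urokinase at the cell surface, had 1.99, 1.74, 3.09, 1.68 and 1.75 in the DG and -1.20, 0.53, -0.90 and -0.33 in the SVZ (2.52, SE 0.41, adjusted p = 0.000222). DG 3 was the highest library, and the groups did not overlap. Plau and Plaur met the table's minimum through DG libraries alone, so their calls are no evidence about the family.

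**Figure D2:**
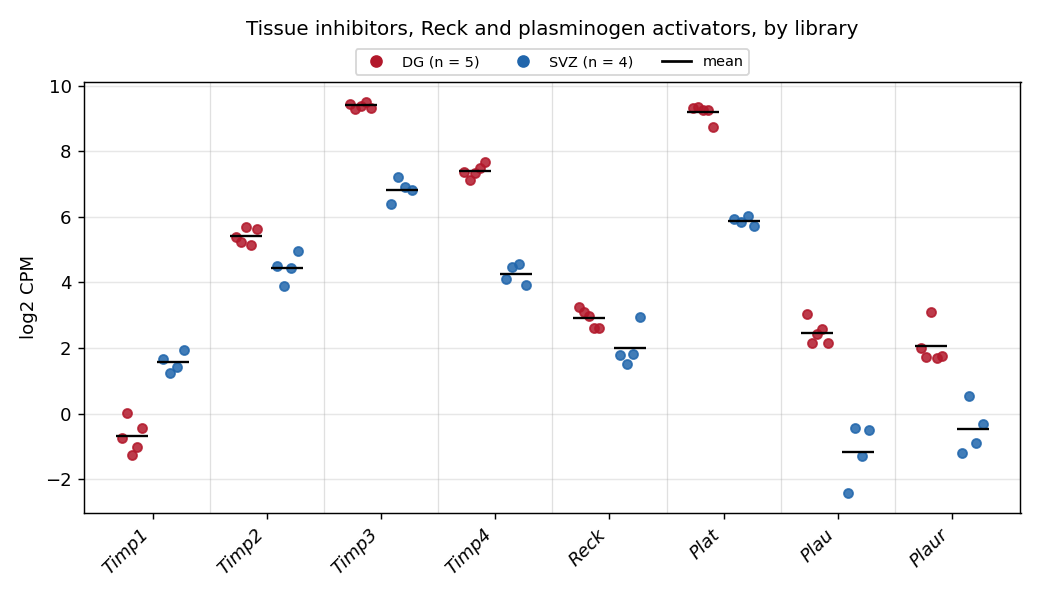
Log2 CPM (y axis) of the Timp genes, Reck and the plasminogen activator genes in each library; points are libraries (DG left, n = 5; SVZ right, n = 4) and lines are means. DG points lie above SVZ points for Timp2, Timp3, Timp4, Plat, Plau and Plaur, below them for Timp1, and overlap with SVZ 4 for Reck.

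Among the matrix metalloproteinases, 7 of 10 measured genes were higher in the DG and 1 was lower (median log2 fold change 1.28), where 32.9% of all genes were higher and 33.7% lower. Among the 7 that met the minimum in each region 4 were higher and 1 lower (median 1.26), beside 29.0% and 34.7% of all such genes. Mmp9 (ENSMUSG00000017737, chromosome 2, 164940780 to 164955850, plus strand), gelatinase B, a secreted enzyme that cuts denatured and basement membrane collagen, had the largest value. It had 4.10, 2.04, 3.66, 3.50 and 4.18 in the DG and -0.30, -3.00, -3.44 and -1.71 in the SVZ. This was 147 to 744 reads per DG library and 2 to 25 per SVZ library, with DG 2 the lowest of its group and SVZ 1 the highest of its own. The log2 fold change was 5.61 (SE 0.63, adjusted p = 1.6e-05), and 6.21 without SVZ 1. With a prior count of 5 reads it was 4.93. The border macrophage markers were also lowest in DG 2 of the DG libraries (196 CPM, against 363 to 875 CPM in the others). In the SVZ they summed to 7.53 CPM in SVZ 1, within the range of the other SVZ libraries. DG 2 was also the lowest DG library for microglial (267 CPM), astroglial (17007 CPM) and mature neuron markers (215 CPM). It was the highest for pericyte and smooth muscle (13156 CPM) and neuroblast markers (8342 CPM). The part of these cell types in the level of Mmp9 was not tested.

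Mmp25, a protease tied to the membrane by a lipid anchor and known from neutrophils, had 2.35, 2.22, 2.04, 1.54 and 1.24 in the DG and -4.05, -3.00, -5.11 and -2.45 in the SVZ. It had 686 reads over the DG libraries and 9 over the SVZ libraries (5.53, SE 0.52, adjusted p = 3.95e-06), and the value was 4.20 with a prior count of 5 reads. Both Mmp9 and Mmp25 met the table's minimum through DG libraries alone, as did Mmp19 (1.32, adjusted p = 0.00197).

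Of the transmembrane enzymes, Mmp16 had 5.18, 5.01, 5.41, 4.83 and 4.88 in the DG and 4.03, 3.59, 3.81 and 3.71 in the SVZ. Its groups did not overlap (1.28, SE 0.15, adjusted p = 2.16e-05). Mmp15, of the same kind, was higher by 1.26 (adjusted p = 0.00036). Mmp14, the membrane enzyme that activates the precursor of Mmp2, had 4.86, 4.94, 4.54, 5.11 and 4.73 in the DG and 4.99, 5.10, 4.80 and 5.07 in the SVZ. It did not pass the test (-0.15, 95% interval -0.45 to 0.14, adjusted p = 0.324). Its substrate gene Mmp2, gelatinase A, was higher by 1.29 (SE 0.24, adjusted p = 0.000631), at 3.59 to 4.76 in the DG and 2.58 to 3.36 in the SVZ. The level of Mmp14 per kilobase was 0.605 to 1.63 times that of Mmp2 in DG libraries and 1.76 to 3.17 times in SVZ libraries, a description of the pair without a test.

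Mmp24, a transmembrane enzyme of neural cells, was the member lower in the DG. It had 2.22, 2.38, 3.12, 1.72 and 2.28 in the DG and 3.38, 3.17, 3.08 and 3.09 in the SVZ, and DG 3 reached into the SVZ range (-0.83, SE 0.25, adjusted p = 0.0117). Its exons share 13.6% of their bases with BC029722 on the opposite strand, and those of Mmp19 share 22.3% with Tmem198b, so reads of these genes cannot be told apart there. Mmp17, another lipid-anchored enzyme, was higher in the DG by 2.24 (SE 0.54, adjusted p = 0.00337). DG 3 stood at 5.55, the other DG libraries at 2.42 to 2.97 and the SVZ libraries at 0.83 to 1.32. Mmp11, stromelysin 3, had 3.47 to 4.77 in the DG and 3.75 to 4.10 in the SVZ and was not called (0.47, adjusted p = 0.109). Without DG 5, its lowest library, it was called (0.70, adjusted p = 0.000813).

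In the Adam family 7 of 12 measured genes were higher in the DG and 1 was lower (median 0.95), beside 32.9% and 33.7% of all genes. Without Adam18, which entered the table through DG libraries alone, 6 of 11 were higher and 1 lower (median 0.76). Over all genes that met the minimum in each region 29.0% were higher and 34.7% lower. The general sheddases parted. Adam17, which releases tumour necrosis factor and ligands of the epidermal growth factor receptor, had 6.97, 6.81, 6.93, 6.72 and 7.0 in the DG and 6.24, 6.21, 6.02 and 6.06 in the SVZ. The groups were narrow and did not overlap (0.76, SE 0.09, adjusted p = 3.26e-05). Adam10, which cuts Notch receptors and N-cadherin, had 7.09, 6.97, 7.33, 6.78 and 6.78 in the DG and 6.88, 7.05, 6.98 and 6.93 in the SVZ. Its difference was 0.03, with a 95% interval of -0.24 to 0.29 (adjusted p = 0.859). Per kilobase the level of Adam10 was 1.25 to 1.92 times that of Adam17 in DG libraries and 2.28 to 2.83 times in SVZ libraries.

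Adam15, a membrane protease with an integrin-binding sequence, had 3.76, 3.27, 4.26, 3.45 and 3.41 in the DG and 0.53, 0.68, 0.97 and 0.56 in the SVZ. Every DG library lay over 2 log2 units above every SVZ library (2.95, SE 0.23, adjusted p = 9.74e-07). An antisense gene overlaps 20.6% of its exon bases. Adam9 was higher by 1.62 (adjusted p = 4.88e-05) and Adam12 by 1.15 (adjusted p = 0.0141), and the groups overlapped for Adam12. Adam19, a protease known to process neuregulin, had 3.59, 3.06, 3.32, 3.02 and 2.68 in the DG and 4.79, 4.05, 4.25 and 4.35 in the SVZ. All DG libraries lay below all SVZ libraries (-1.23, SE 0.21, adjusted p = 0.000334). Adam8, a protease of myeloid cells, did not pass (2.09 ± 0.81 in the DG, 2.59 ± 0.47 in the SVZ). Without DG 3, its highest DG library, it was called lower in the DG (-0.82, adjusted p = 0.0319).

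Several Adam proteins have no protease activity and act in adhesion. Adam22 and Adam23, receptors of the secreted Lgi proteins at synapses, differed in outcome. Adam22 had the highest mean log2 CPM of the family, with 7.96, 7.73, 8.76, 7.87 and 7.68 in the DG and 8.02, 7.60, 7.69 and 7.78 in the SVZ. Apart from the high DG 3 the libraries lay together (0.23, 95% interval -0.21 to 0.66, adjusted p = 0.327). Adam23 had 5.18, 5.35, 5.60, 5.22 and 5.47 in the DG and 4.27, 3.84, 3.93 and 4.50 in the SVZ, without overlap (1.23, SE 0.16, adjusted p = 3.81e-05). Adam11, a related gene, was higher by 2.09 (adjusted p = 0.000107). Adam18 and Adam5, genes known from sperm, were counted in few reads. Adam18 had 36 to 126 reads per DG library and 0 to 9 per SVZ library (4.08, SE 0.63, adjusted p = 0.000157). That value was 3.39 without SVZ 3, which had 0 reads, and 3.07 with a prior count of 5 reads. Adam5 had 39 to 88 and 18 to 82 reads per library and did not pass (adjusted p = 0.77).

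**Figure D3:**
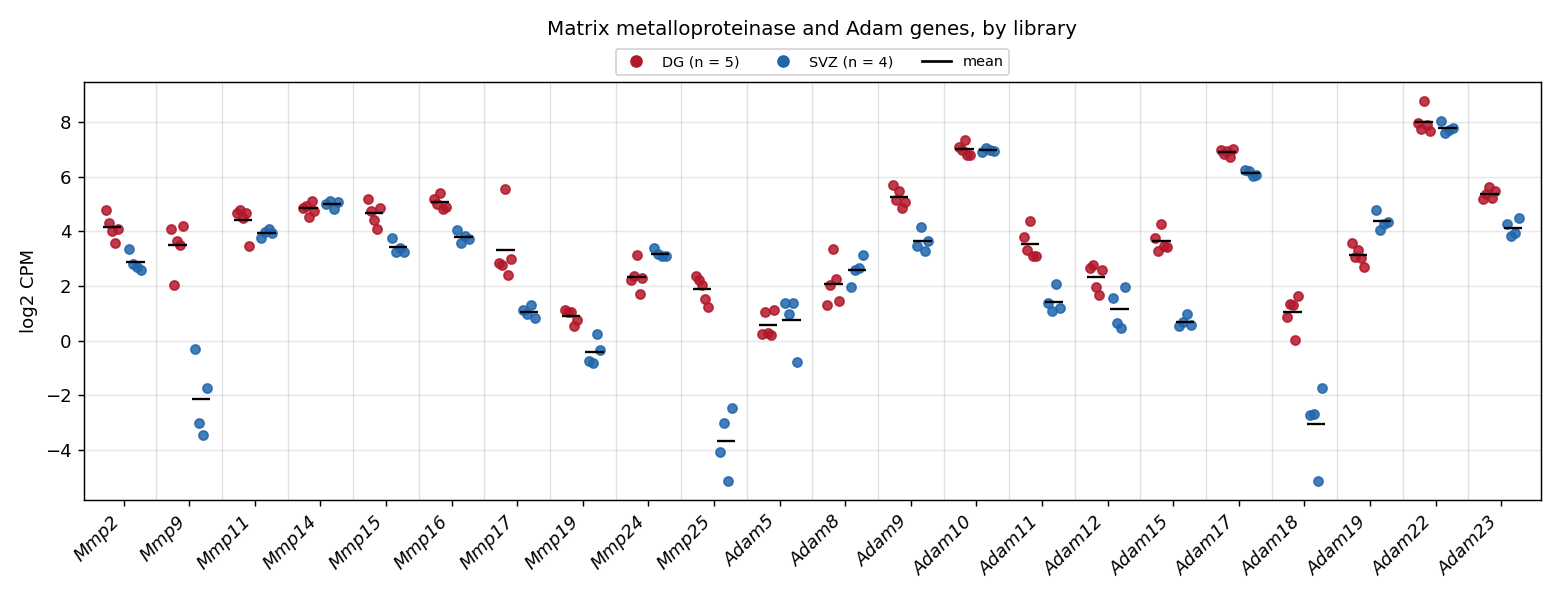
Log2 CPM (y axis) of the 10 Mmp and 12 Adam genes in each library; points are libraries (DG left, n = 5; SVZ right, n = 4) and lines are means. The means lie farthest apart for Mmp9, Mmp25 and Adam18, the points of Mmp14 and Adam10 overlap, and DG 3 stands above the other DG points for Mmp17 and Adam22.

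Of 14 measured Adamts genes 9 were higher in the DG and 2 lower (median 1.86), beside 32.9% and 33.7% of all genes, but 6 of the 9 met the table's minimum through DG libraries alone. Of the 8 that met it in each region 3 were higher, 2 lower and 3 not called, with a median of 0.01. Over all genes that did so 29.0% were higher and 34.7% lower, with a median of -0.12. Adamts1 (ENSMUSG00000022893, chromosome 16, 85793827 to 85803113), which cuts the proteoglycans aggrecan and versican, had 4.72, 3.93, 5.09, 4.11 and 3.44 in the DG and 0.29, 1.01, 1.04 and 0.22 in the SVZ. The groups lay over 2 log2 units apart, and the difference was 12.3-fold (3.62, SE 0.34, adjusted p = 3.67e-06). Adamts4, of the same activity, had the highest mean log2 CPM of the family. It had 6.61, 5.75, 5.80, 5.90 and 6.12 in the DG and 5.86, 5.76, 5.62 and 5.46 in the SVZ. The groups overlapped and the gene was not called (0.36, 95% interval -0.01 to 0.74, adjusted p = 0.0807), but it was called without DG 2 (0.44, adjusted p = 0.0496).

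The other proteoglycan-cutting genes higher in the DG were low: Adamts15 (4.73), Adamts8 (2.64), Adamts9 (2.46) and Adamts5 (2.40) averaged at most 2.01 log2 CPM in the DG. Each of them met the table's minimum through DG libraries alone. Adamts15 had 504 reads over the DG libraries and 11 over the SVZ libraries, and its value was 3.56 with a prior count of 5 reads. Adamts20, of the same group of enzymes, was lower in the DG, at 0.63, 0.01, 1.26, -0.38 and 0.66 in the DG and 2.05, 1.32, 2.31 and 1.72 in the SVZ. The nearest libraries of the groups were DG 3 and SVZ 2, and they did not overlap (-1.41, SE 0.35, adjusted p = 0.00411). Adamts7, known in humans as a risk gene of coronary disease, had 1.27, 2.37, 1.17, 1.5 and 1.05 in the DG and 3.38, 3.35, 3.58 and 2.64 in the SVZ. DG 2 came nearest to the SVZ level (-1.77, SE 0.30, adjusted p = 0.000314).

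Adamts10 and Adamts17 are known in humans from Weill-Marchesani syndrome and linked to fibrillin. Adamts17 was higher in the DG (2.01, adjusted p = 0.00452) and Adamts10 did not pass (-0.36, adjusted p = 0.286). Adamts16 and Adamts18, closely related to each other, were both higher (2.33 and 1.72), and so was Adamts6 (0.82). Adamts16 and Adamts17 met the table's minimum through DG libraries alone, so their calls are no evidence about these related genes. Adamts3, a procollagen peptidase that also cuts reelin, had 0.34 to 1.83 in the DG and 0.73 to 1.79 in the SVZ and did not pass (adjusted p = 0.41).

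All 5 Adamtsl genes, which encode matrix glycoproteins that lack the protease domain, were higher in the DG, beside 32.9% of all genes. Of them 3, Adamtsl3, Adamtsl4 and Adamtsl5, met the table's minimum through DG libraries alone. Adamtsl5 had 1.99, 1.02, 0.86, 1.10 and 0.55 in the DG and -2.70, -2.67, -4.04 and -4.07 in the SVZ, from 406 reads over the DG libraries and 10 over the SVZ libraries (4.47, SE 0.44, adjusted p = 6e-06). With a prior count of 5 reads its value was 3.38. Adamtsl3 had 2.47, 1.99, 2.49, 1.14 and 2.56 in the DG and -0.68, -0.65, -0.90 and -1.12 in the SVZ, with DG 4 the lowest of its group and no overlap (2.97, SE 0.32, adjusted p = 1.17e-05). Adamtsl4, a fibrillin-binding member, was higher by 2.82 and Adamtsl2 by 0.95. Adamtsl1 was higher by 0.60 (adjusted p = 0.0318). Its call was lost without DG 1, DG 3 or DG 4 and without SVZ 1, SVZ 2 or SVZ 3, with values of 0.55, 0.54 and 0.51 and of 0.58, 0.54 and 0.62.

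Of 12 measured serpin genes 11 were higher in the DG and 0 lower, with a median of 3.1, beside 32.9% higher and 33.7% lower of all genes. Of the 9 that met the table's minimum in each region 8 were higher (median 2.41), beside 29.0% of all genes that did so. Serpine2 (ENSMUSG00000026249, chromosome 1, 79794197 to 79861180, minus strand), protease nexin 1, inhibits thrombin and both plasminogen activators. It had 9.78, 9.25, 9.45, 9.07 and 9.48 in the DG and 6.64, 7.42, 7.33 and 6.57 in the SVZ. The DG libraries were well above all SVZ libraries, by 5.33-fold (2.41, SE 0.20, adjusted p = 1.54e-06). Serping1 (ENSMUSG00000023224), the inhibitor of the first complement component, had 7.38, 7.29, 7.02, 7.32 and 7.04 in the DG and 3.90, 3.79, 3.47 and 3.89 in the SVZ. Its groups were narrow and 10.9-fold apart (3.45, SE 0.13, adjusted p = 1.15e-08).

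Serpini1, neuroserpin, a neuronal inhibitor of tissue plasminogen activator, had 6.46, 6.69, 6.49, 6.35 and 6.01 in the DG and 4.32, 4.12, 4.09 and 4.22 in the SVZ. No library of one group came near the other (2.21, SE 0.13, adjusted p = 1.66e-07). Per kilobase, Serpine2 stood at 0.668 to 1.25 times the level of its target Plat in DG libraries and at 1.23 to 2.26 times in SVZ libraries. Plat and these inhibitors were thus all higher in the DG, and the ranges of the Serpine2 ratio overlapped slightly between the regions.

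Serpinh1, a chaperone of collagen in the endoplasmic reticulum and no inhibitor, was higher by 3.19 (adjusted p = 1.66e-05), at 8.48 to 9.62 in the DG and 4.77 to 6.84 in the SVZ. Serpinf1, pigment epithelium-derived factor, also no inhibitor and known as a factor for neural stem cells, was higher by 3.21 (adjusted p = 3.5e-06), and Serpind1, heparin cofactor II, by 3.47 (adjusted p = 1.22e-06). Serpinf1 and Serpind1 met the table's minimum through DG libraries alone. Serpina3n, an antichymotrypsin-like gene of reactive astrocytes, was higher by 4.17 (adjusted p = 1.25e-06), with DG 3 at 6.38, the other DG libraries at 4.43 to 5.34 and the SVZ libraries at 0.74 to 1.17.

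Clade B serpins act inside cells. Serpinb6a had 6.15, 6.21, 6.09, 6.33 and 6.36 in the DG and 4.57, 4.63, 4.67 and 4.43 in the SVZ, with little spread in either group (1.65, SE 0.10, adjusted p = 1.66e-07). Nqo2 on the opposite strand overlaps 14.1% of its exon bases. Serpinb9, the inhibitor of granzyme B, was higher by 3.0 (adjusted p = 1.66e-07), Serpinb8 by 4.43 (adjusted p = 2.46e-06) and Serpinb6b by 1.25 (adjusted p = 0.00581). Of these, Serpinb8 met the table's minimum through DG libraries alone. Serpinb1a, an inhibitor of neutrophil elastase, was the serpin that did not pass, at 2.33 to 3.38 in the DG and 2.74 to 3.73 in the SVZ (-0.47, adjusted p = 0.156). Serpina3n and the clade B genes have close copies in the mouse genome, so their reads may be split among copies, and 49 of 61 annotated serpins were not in the table.

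**Figure D4:**
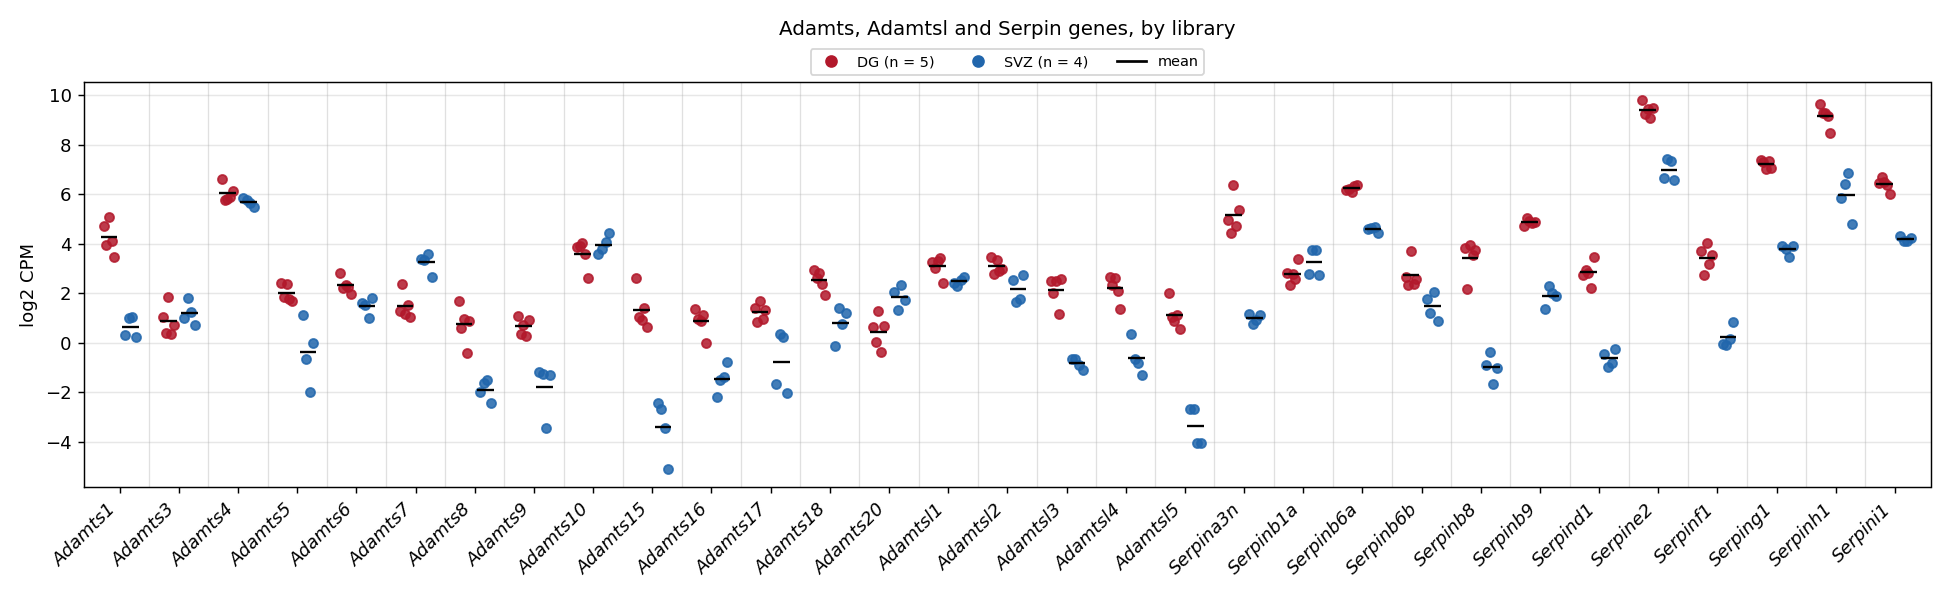
Log2 CPM (y axis) of the 14 Adamts, 5 Adamtsl and 12 Serpin genes in each library; points are libraries (DG left, n = 5; SVZ right, n = 4) and lines are means. DG points lie above SVZ points for all serpins but Serpinb1a, and below them for Adamts7 and Adamts20.

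Levels per kilobase of exon allow genes to be ranked within a region. In the DG the order began with Serpinh1 at 242 ± 63.3 CPM per kilobase, Plat at 94.2 ± 14.4, Serpine2 at 83.0 ± 15.5, Timp3 at 82.9 ± 5.12 and Serping1 at 64.1 ± 7.30, and the levels of Plat, Serpine2 and Timp3 lay within their spread. In the SVZ it began with Serpinh1 at 29.1 ± 15.3, Adam10 at 25.4 ± 1.27, Serpine2 at 15.9 ± 4.81, Adam22 at 15.3 ± 1.95 and Timp3 at 14.2 ± 3.28, where Serpinh1 and Adam10 lay within their spread, as did Serpine2, Adam22 and Timp3. Adam10 thus stood in place 7 in the DG and in place 2 in the SVZ at nearly equal levels, and Timp1 in places 44 and 15. Of the 61 genes, 21 in the DG and 14 in the SVZ lay above the median of all genes with a known exon length (4.49 and 4.08 CPM per kilobase). Mmp9, with the largest fold change, reached 3.57 ± 1.58 CPM per kilobase in the DG and 0.0862 ± 0.094 in the SVZ.

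**Figure D5:**
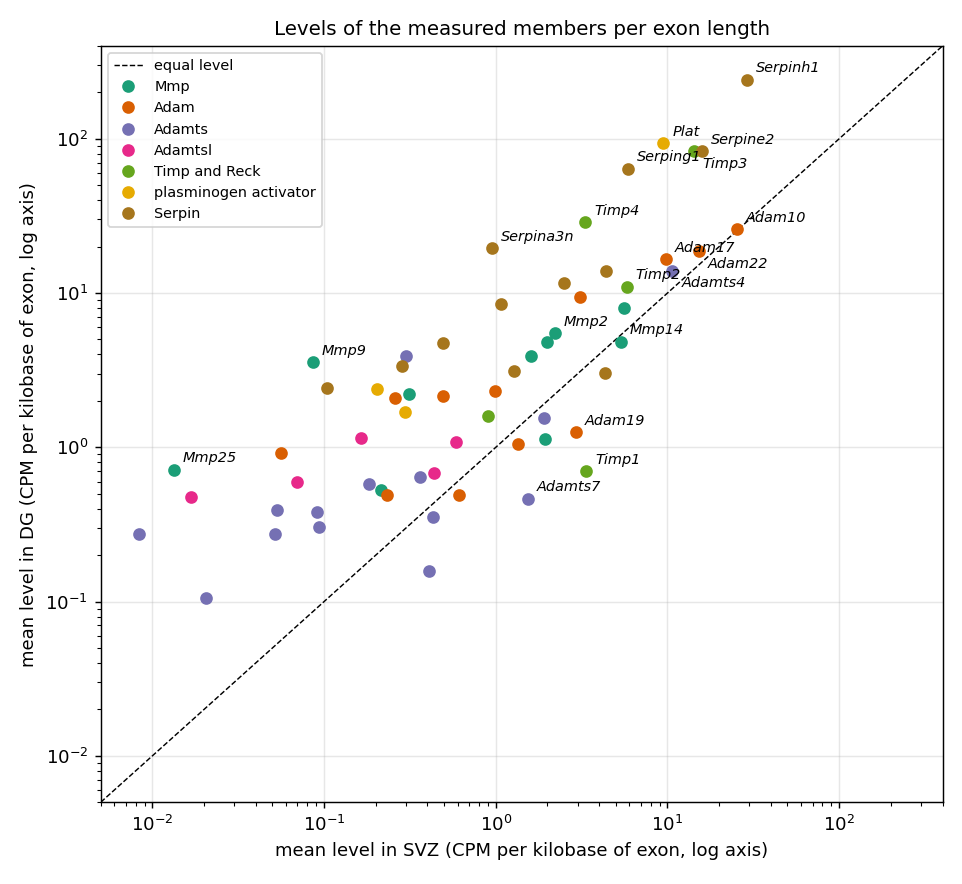
Mean level in the DG (y axis, n = 5) against mean level in the SVZ (x axis, n = 4) of the 61 genes, in CPM per kilobase of exon on log axes; the dashed line marks equal levels and colours mark families. Serpinh1 is the highest in both regions, Adam10 lies on the line, and Timp1, Adam19 and Adamts7 lie below it.

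Within a region these genes spread more than most, with a median SD of 0.43 log2 CPM over the DG libraries and 0.41 over the SVZ libraries, beside 0.25 and 0.26 over all genes. The comparison was not matched for level. The median level of these genes was 2.22 CPM per kilobase in the DG and 0.906 in the SVZ, beside 4.49 and 4.08 over all genes. DG 3 lay over 1 log2 unit above the median of the other DG libraries in 8 genes, Mmp17 (2.75), Adam8 (1.61), Serpina3n (1.54), Plaur (1.34), Adamts3 (1.28), Serpinb6b (1.25), Adam11 (1.16) and Adamts1 (1.07), and below it by as much in 0. Its mature neuron markers were high too, as given above. Its endothelial markers were also the highest of the DG libraries (3744 CPM, against 1933 to 2558 CPM), and its ependymal markers the lowest (15 CPM). The part of these cell types in the values of DG 3 was not tested. DG 2 was low for Mmp9 (-1.84) and Serpinb8 (-1.63) and high for Adamts7 (1.15). Among SVZ libraries, SVZ 1 was high for Mmp9 (2.70) and Adamts5 (1.78). Without DG 2, DG 3 and SVZ 1 together, 45 of the genes were higher in the DG and 6 lower.

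Several of the genes are neighbours. Adamts1 and Adamts5 on chromosome 16 (53.1 kb apart) were both higher in the DG, as were Adamts15 and Adamts8 on chromosome 9 (20.1 kb apart). Adamts5, Adamts15 and Adamts8 met the table's minimum through DG libraries alone, so these shared directions are no evidence about neighbours. On chromosome 8, Adam18, Adam5 and Adam9 lie in a row with log2 fold changes of 4.08, -0.16 and 1.62. Adam18 too entered through DG libraries alone. On chromosome 13, Serpinb1a, Serpinb6b and Serpinb9 have values of -0.47, 1.25 and 3.0. Adam5 and Serpinb1a did not pass the test.

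The genes whose log2 CPM followed Timp4 most closely over the 9 libraries were Pcsk6 (Pearson r = 0.9993), Selenom (0.9984) and Tmbim4 (0.9972). Those nearest to Timp3 were Add3 (0.9986), Pon2 (0.9985) and Cpt1a (0.9984), and those nearest to Plat were Fzd6 (0.9991), S1pr3 (0.9991) and Col4a1 (0.9988). Adora2b (0.9959), Hbegf (0.9951) and H2-K1 (0.9948) were nearest to Serpine2. The 9 points fall in 2 groups by region, so these values mainly give a shared difference between the regions, and they carry no test.

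Other genes of matrix proteolysis, a list of 55 partners of which 44 were measured, were also mostly higher in the DG, with 31 higher (background 32.9%), 4 lower (background 33.7%) and a median of 1.5. Of these partners 10 entered the table through DG libraries alone and 2 through SVZ libraries alone. Of the 32 that met the minimum in each region 22 were higher (background 29.0%) and 3 lower (background 34.7%), with a median of 0.90. Those with the smallest adjusted p were Pcolce, an enhancer of procollagen cleavage that entered through the DG alone (6.40, adjusted p = 4e-08), Htra3, a secreted serine protease (3.64), Prss23 (3.76) and Pcsk6, a proprotein convertase (4.06). The inactive rhomboid genes Rhbdf1 and Rhbdf2, whose products carry Adam17 to the cell surface, were higher by 4.13 and 3.48, and both entered through the DG alone. Tetraspanin genes that guide Adam10 were divided. Tspan15, Tspan33, Tspan17 and Tspan14 were higher in the DG (1.91, 2.30, 2.64 and 0.51; Tspan33 and Tspan17 entered through the DG alone) and Tspan5 was lower (-0.68, adjusted p = 0.0114). The other genes lower in the DG were Tll1, a procollagen peptidase that entered through the SVZ alone (-2.30), S100a10, a plasminogen receptor subunit (-1.77), and Lrp8, a reelin receptor (-1.36).

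A further list held genes for brain proteoglycans, which Adamts enzymes cut, for their matrix partners, and Reln, reelin. Of its 9 measured genes 7 were higher in the DG and 1 lower, beside 32.9% and 33.7% of all genes. Of the proteoglycan genes themselves Acan and Bcan were higher, Vcan was lower and Ncan was not called. Without Acan, which entered the table through DG libraries alone, 6 of 8 were higher and 1 lower (median 2.51). Over all genes that met the minimum in each region 29.0% were higher and 34.7% lower. Tnc, tenascin C, was higher by 3.34 (adjusted p = 3.21e-08), the link protein gene Hapln3 by 3.19, Acan, aggrecan, by 4.37, and Bcan, brevican, by 2.05. Vcan, versican, had 6.68, 6.95, 6.21, 5.82 and 6.36 in the DG and 7.74, 6.98, 7.33 and 7.91 in the SVZ (-1.08, SE 0.24, adjusted p = 0.00194), with DG 2 just below SVZ 2. Ncan, neurocan, did not pass (-0.22, adjusted p = 0.135). Without DG 3, 2 genes of the list were lower.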

How the data were processed

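Per the labels' protocols, RNA of sorted cells was copied from a poly-dT primer with template switching, amplified, sheared and sequenced as bulk libraries that do not mark strand. The deposited table holds log2 CPM made by the authors. Per the submitters' processing notes they used STAR, edgeR and mm10. Their versions, gene counter and annotation were not stated in the sources used. The values carry a prior of 1 read, scaled by library total: undoing this formula gave whole reads for 100% of values (tolerance 0.001). Reads are not tagged by molecule, so copies made by amplification cannot be told from separate molecules. The SE and p-values rest on the spread between libraries. Libraries of a region all differed beyond counting noise (chi-square over its degrees of freedom 19.6 to 172.8), so none was treated as a duplicate.

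Symbols, coordinates (1-based) and exon lengths came from GENCODE M21, and 14433 of 14477 identifiers matched. Regions were compared in R 4.3.3 by limma 3.58.1, with its variance trend and region as the only term, on the deposited log2 values, tested on simulated data before use. The threshold was an adjusted p under 0.05. Fold changes of genes with few reads are understated by the prior. The members and lists were chosen with earlier results of these data known. Values per library are given for the Timp genes, Reck and plasminogen activator genes, and in each other family for up to 3 called genes per direction with the smallest p and the gene with the highest mean log2 CPM; other genes are described by range or value. The labels do not say whether same-numbered DG and SVZ libraries are pairs. Those libraries did not deviate together (correlation of deviations -0.173 to 0.007), which cannot show whether they share animals or a sort. No pairing was therefore used in the main fit. Alternatives were 2 other scalings, 2 other prior counts, a filter on low values, 2 other variance models, a replicate block, and leaving out each library. No protein sequences were used here, so the planned split by catalytic motif was not made.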

Additional observations from a re-analysis of the deposited data

Results flagged for a closer look

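In 8 of 122 groups of libraries (61 genes in each region), 1 library lay far from the others relative to the group's range, where chance gives about 1 in 20. In DG 3 these were Mmp17 at 5.55 log2 CPM (other DG libraries 2.42 to 2.97), Adam22 at 8.76 (7.68 to 7.96), Serpinb6b at 3.70 (2.33 to 2.64) and Plaur at 3.09 (1.68 to 1.99). In DG 5 they were Plat at 8.75 (9.24 to 9.34) and Mmp11 at 3.47 (4.47 to 4.77). Serpinb8 in DG 2 stood at 2.15 (3.52 to 3.94), and Adamts9 in SVZ 3 at -3.44 (-1.33 to -1.20).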

How the results depend on the processing

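Of the 46 genes higher in the DG 43 kept their call, as did all 5 lower in the DG and 7 of the 10 not called, under each of 18 alternatives in which they were fitted. The exceptions were Adamtsl1, Reck and Adam12 among the higher genes and Adam8, Adamts4 and Mmp11 among those not called. No value changed sign with a call. Over the alternatives that leave out 1 library, 44 to 47 genes were higher and 5 to 6 lower. With the replicate block the counts stayed at 46 and 5. Adam12 lost its call there (adjusted p = 0.0541) and Mmp11 gained one (adjusted p = 0.00746). With only genes of a mean of at least 1 log2 CPM, 32 were higher and the median log2 fold change was 1.255, and for Timp with Reck 1.763. Then Adamts had 3 higher and a median of 0.015, Adamtsl 2 higher and 0.772, the plasminogen activators 1 higher, and Timp with Reck 0 lower, since fewer genes were tested. Leaving out 1 library gave medians of 0.772 to 1.21 for Timp with Reck and 2.899 to 3.121 for serpins. For the list of proteoglycans and their partners the medians were 2.616 to 3.221. There were then 1 to 2 lower Adam genes and 1 to 2 lower genes of that list. Without DG 2, DG 3 and SVZ 1 together, an alternative chosen after the data were seen, 2 Adam genes and 2 genes of that list were lower. The cause of these shifts was not tested. Scaling moved the median of all genes from -0.075 to -0.039 (median of ratios) or -0.123 (upper quartile). Depth limits the genes with under 10 reads in SVZ libraries, whose fold changes depend on the prior count.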
